A study of Mus musculus with 9 samples.

Results

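The baseline transcriptome of wildtype newborn mouse epidermis was described from 5 Affymetrix Mouse Genome 430 2.0 arrays, the samples titled wildtype, out of 9 arrays in a series on Alox12b. The pups had the genotype WT and came from matings of heterozygous Alox12b knockout parents, their strain is given as 129S6, and they were killed and genotyped right after birth, with no other treatment named. Trunk epidermis was lifted from the dermis after 30 seconds in phosphate-buffered saline at 56 °C, and the labels call the 5 samples biological replicates. The arrays are numbered 1 to 5 as in their titles. The labels give neither the litter nor the sex of a pup. The arrays of the other genotype were not used, so nothing here is a comparison between genotypes, and no test was made.

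Epidermis is a stratified epithelium made almost wholly of keratinocytes. Basal cells attached to the basement membrane divide and carry the keratins Krt5 and Krt14; cells that leave this layer switch to Krt1 and Krt10, fill with filaggrin and loricrin in the granular layer, and end as dead corneocytes. A corneocyte is wrapped in a cornified envelope of cross-linked protein with a coat of bound ceramides, and Alox12b and Aloxe3, the lipoxygenases that oxidise the linoleate of acylceramides, work on that lipid coat. The barrier is completed shortly before birth in the mouse.

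A gene's level is its mean log2 expression value over the 5 arrays, read from the brightest probe set that names this gene alone; a difference of 1 is 2-fold. Levels were obtained for 18193 genes. Signal also depends on the probes, so the order of genes is an order of probe-set signals and not of transcript numbers. The median level was 4.11, and the 90th and 99th percentiles were 8.12 and 11.11. As a background mark, the 95th percentile of 39 olfactory receptor genes was taken, which was 3.15, and 11854 genes, 65.2%, lay above it. The mark is not a detection call: of 44 markers of internal organs such as liver, brain and testis, 14 also lay above it, and a mark set from their 95th percentile, 4.82, was passed by 7640 genes. Array 5 stood apart from the other arrays, with 1087 genes above the mark lying over 1 from the median of the other 4 arrays, against 29 to 209 on arrays 1 to 4.

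Genes of terminal differentiation led the ranking. Lor, the glycine-rich loricrin of the cornified envelope, was the highest gene and read 14.34, 14.37, 14.45, 14.28 and 14.22 on arrays 1 to 5, a level of 14.33 ± 0.09 (SD, n = 5). Krt10, the type I keratin of suprabasal cells, read 14.21, 14.23, 14.30, 14.21 and 14.25 (14.24 ± 0.04, SD, n = 5), and its partner Krt1 read 13.99, 14.01, 14.05, 14.06 and 14.01 (14.02 ± 0.03, SD, n = 5). Both keratins lay close to the highest values of any array, where a saturated signal would hide differences, and saturation was not tested. The ranges of Lor and Krt10 overlapped, so their order is within the spread. Sbsn and Dmkn, secreted proteins of the upper layers, followed at 14.08 ± 0.07 and 13.96 ± 0.07 (SD, n = 5), and Krtdap, another such protein, read between 13.87 and 14.17. Fabp5, the epidermal fatty acid binding protein, was at 13.77 ± 0.04 and Lgals7, the galectin of stratified epithelia, at 13.56 ± 0.05 (SD, n = 5).

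Of the 100 highest genes, 28 belonged to the lists of epidermal genes and 34 encoded cytosolic ribosomal proteins; of the 30 highest, 12 and 10 did. Beside those already named, the epidermal genes among the 30 highest were Lce1a2 at 13.31 ± 0.28 and Lce1i at 13.26 ± 0.62, both late cornified envelope proteins, Crct1, a cysteine-rich protein of the same gene complex, at 13.31 ± 0.15, Asprv1, the aspartic protease that trims profilaggrin, at 13.30 ± 0.18, and the desmosomal genes Perp at 13.27 ± 0.12 and Dsp at 13.22 ± 0.09 (SD, n = 5). Calm4, a calmodulin-like protein of differentiating keratinocytes, stood at 13.58 ± 0.22 and Stfa3, a cysteine protease inhibitor of the stefin family, at 13.31 ± 0.12 (SD, n = 5). The translation factor Eef1a1 was at 13.48 ± 0.10 and Tpt1, the translationally controlled tumour protein, at 13.88 ± 0.06 (SD, n = 5). ND5, a mitochondrially encoded subunit of respiratory complex I, read 14.17, 14.17, 14.09 and 14.13 on arrays 1 to 4 but 13.51 on array 5. The median SD among the 100 highest genes was 0.115, and only Lce1i, Hnrnpab and Lce1h exceeded 0.5.

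**Figure D1:**
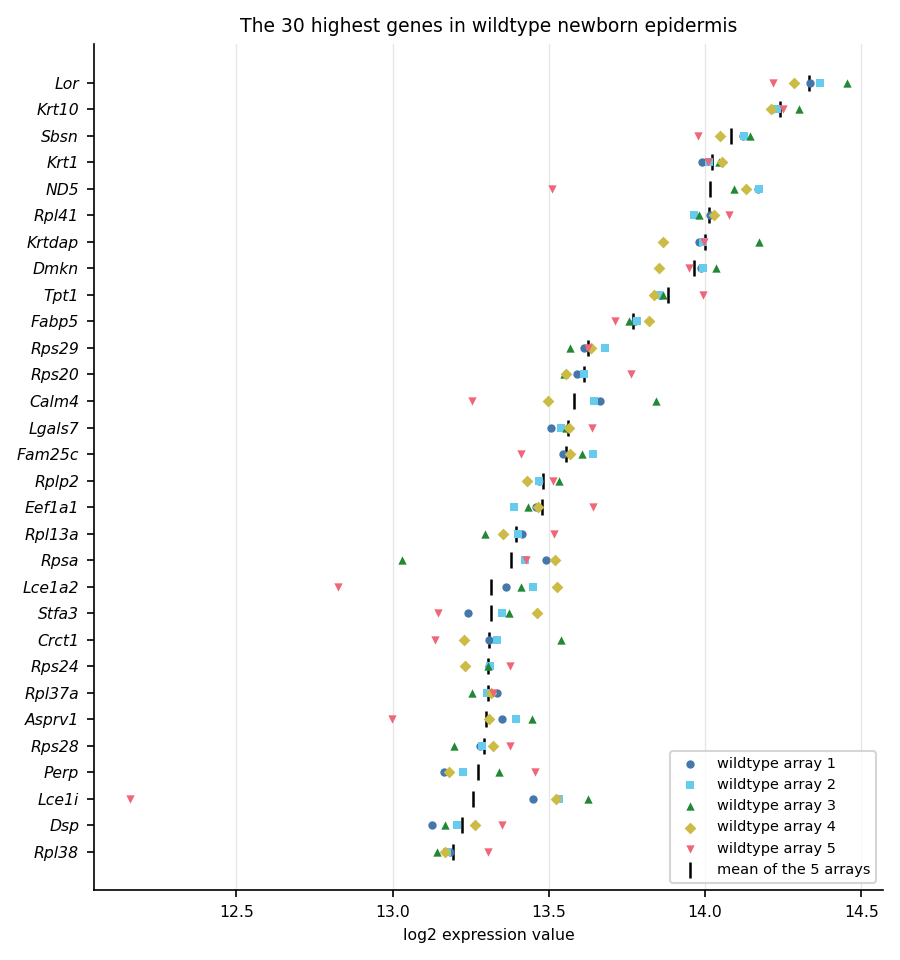
The 30 genes with the highest level, from top to bottom in rank order. The x axis is the log2 expression value, each symbol is 1 of the 5 wildtype arrays and the black tick is their mean; Lor leads at 14.33, most genes lie close together over the arrays, and Lce1i, Lce1a2 and ND5 are lower on array 5.

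Runs of neighbouring genes were among the highest. In the gene order of the GRCm38.p6 table, the epidermal differentiation complex, a run on chromosome 3 from S100a1 to S100a10 that holds the cornified envelope families, had 70 protein-coding genes. Of the 48 measured here, 43 lay above the mark and 13 were among the 100 highest: Lor, Flg, Hrnr, Crct1 and 9 Lce1 genes. The median level of the run was 9.53, against 4.11 for all genes, of which 65.2% lay above the mark. Sbsn, Dmkn and Krtdap are adjacent on chromosome 7 and were all 3 among the 100 highest. The type II keratin cluster on chromosome 15, from Krt80 to Krt18, was less uniform: 23 of 24 measured genes lay above the mark, but Krt1 was its only gene among the 100 highest, and its median level was 6.16.

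The starts of some leading genes were searched for a canonical TATA box. This was the letters TATAAA on the gene's own strand, lying wholly within the stretch from 40 to 20 bases before the annotated start, where such boxes usually lie. Among the 30 highest genes, 23 had a promoter window and 4 of these (17.4%) held the motif. All 4 are printed for that reason, beside Sbsn as a gene without it, so the stretches shown are not typical of the leading genes. The 80 bases before the start are printed 5′ to 3′ from RefSeq promoter windows of GRCm38.p6, with the motif in capitals.
Lor: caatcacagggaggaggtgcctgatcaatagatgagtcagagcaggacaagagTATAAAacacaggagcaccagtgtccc
Krt10: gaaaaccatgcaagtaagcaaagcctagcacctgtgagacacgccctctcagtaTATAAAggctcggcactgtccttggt
Krtdap: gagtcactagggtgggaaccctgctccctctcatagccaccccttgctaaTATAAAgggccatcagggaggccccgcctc
Fam25c: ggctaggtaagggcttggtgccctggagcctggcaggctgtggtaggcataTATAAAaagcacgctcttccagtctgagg
Sbsn: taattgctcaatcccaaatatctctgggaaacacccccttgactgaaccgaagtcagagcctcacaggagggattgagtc
The Lor stretch is chr3:92083143-92083222 on the minus strand, Krt10 chr11:99389365-99389444 on the minus strand, Krtdap chr7:30787825-30787904 on the plus strand, Fam25c chr14:34355394-34355473 on the minus strand and Sbsn chr7:30751391-30751470 on the plus strand. Fam25c had a level of 13.55 ± 0.09 (SD, n = 5). The motif began at position -27 in Lor, -26 in Krt10, -30 in Krtdap and -29 in Fam25c, and these letters were not in the searched window of Sbsn. Among the 78 of the 100 highest genes with a promoter window, 7 (8.97%) held the motif there, the others being Hrnr, Lce1m and Lce1d. Among all 14452 measured genes with a window, 390 (2.70%) held it, as did 1.91% of the 32851 windows of the table. Of the epidermal genes among the 100 highest, 6 of 22 held it, and of the ribosomal protein genes 0 of 29, which is near the share of all genes. The counts are a description, and neighbouring Lce1 genes are copies of one another and not independent.

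Basal layer genes were read well below the suprabasal Krt1 and Krt10. The basal keratins Krt15, Krt5 and Krt14 were above some other suprabasal keratins, such as Krt77 at 8.53. All 13 measured members of the basal list, which holds basal keratins, integrins, hemidesmosome and laminin genes and Trp63, lay above the mark, but their median level was 5.97 and none was among the 100 highest. Over all genes, 65.2% lay above the mark and 0.753% had an SD over 1. Of this list, 0 had an SD over 1. Krt15, a basal keratin, read 9.33, 9.76, 9.24, 10.64 and 9.43 on arrays 1 to 5 (9.68 ± 0.57, SD, n = 5). Krt5 read 9.17, 9.35 and 9.76 on arrays 1, 2 and 4, a little less on array 3 and 7.47 on array 5 (8.95 ± 0.87). Krt14, its partner, read 9.20, 9.23, 9.11, 9.65 and 7.36 (8.91 ± 0.89; SD, n = 5). Both were lowest on array 5 and highest on array 4. Trp63, the transcription factor p63 that maintains basal cells, went the other way on array 5, with 7.22, 7.05, 7.32, 7.49 and 8.65. The integrin subunits Itga6 and Itgb4, which anchor basal cells, were at 6.09 ± 0.30 and 3.73 ± 0.19, and Col17a1, the hemidesmosomal collagen, at 5.97 ± 0.41 (SD, n = 5).

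Suprabasal keratins ranged from the top of the ranking to the mark. Krt78 and Krt80, keratins of differentiating cells, were at 11.70 ± 0.15 and 10.56 ± 0.12, and Krt77, a keratin also known from sweat ducts, at 8.53 ± 0.62 (SD, n = 5). Krt2, the keratin of upper layers in body sites such as ear and tail, read 3.78, 7.81, 3.64, 3.39 and 4.62, so that array 2 alone was the only one above 5, and its SD of 1.83 was the only one over 1 among the 8 genes of the list.

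Among 21 measured cornified envelope precursors, 20 lay above the mark, their median level was 11.13 and 0 had an SD over 1. The shares over all genes were 65.2% above the mark and 0.753% with an SD over 1. Flg, profilaggrin, which bundles keratin filaments, was at 13.16 ± 0.12 and Hrnr, hornerin, a related fused S100 protein, at 12.91 ± 0.16 (SD, n = 5). Ivl, involucrin, to which the ceramides are bound, was at 11.72 ± 0.20 and Cdsn, corneodesmosin, which holds corneocytes together, at 11.85 ± 0.07 (SD, n = 5). The plakins Ppl and Evpl were at 10.87 ± 0.14 and 10.21 ± 0.12, and the transglutaminases that cross-link the envelope were lower, with Tgm1 at 9.18 ± 0.30, Tgm3 at 8.21 ± 0.14 and Tgm5 at 7.90 ± 0.21 (SD, n = 5). Rptn, repetin, and Prr9, proline-rich 9, had the largest spread of the list, with 9.30 ± 0.67 and 9.51 ± 0.56 (SD, n = 5), and Lelp1 was the member below the mark, at 2.16.

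The 15 measured late cornified envelope genes all lay above the mark, against 65.2% of all genes, and fell in 2 tiers. Of the 11 Lce1 genes, 9 were among the 100 highest, from Lce1b at 12.37 ± 0.35 to Lce1a2, while Lce1l and Lce1g were at 7.51 ± 0.89 and 6.51 ± 1.28 (SD, n = 5). The 4 Lce3 genes, which are induced in injured and inflamed skin, lay between 7.38 and 9.61. Lce3f read 8.13, 10.34, 10.43, 8.16 and 6.78, high on arrays 2 and 3. All 15 genes were lowest on array 5, and the list mean was 9.90 there against 10.97 to 11.45 on arrays 1 to 4. Short and near-identical Lce1 genes can share probes, so single members are uncertain.

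The small proline-rich genes, cross-bridging proteins of the envelope, had 3 of 9 measured genes with an SD over 1. The late cornified envelope genes had 2 of 15, and the share over all genes was 0.753%. The median SD was 0.604 for the small proline-rich and 0.605 for the late cornified envelope genes. Sprr2h led at 10.29 ± 0.36 (SD, n = 5). Sprr2d read 10.36, 10.14, 11.63, 9.51 and 8.85, and Sprr1b 8.55, 8.86, 10.77, 7.92 and 6.74; both were highest on array 3 and lowest on array 5. Sprr3, which is abundant in internal stratified epithelia such as oesophagus, read 7.25, 8.18, 8.48, 4.14 and 4.74, low on arrays 4 and 5 with no overlap with the rest. The stress keratins, which mark injured and follicular keratinocytes, all had an SD over 1. Krt6a read 7.48, 8.05, 8.96, 6.43 and 5.69, Krt6b ranged from 4.86 on array 5 to 8.91 on array 3, and Krt16 read 5.94, 6.01, 8.14, 6.25 and 3.31. Krt17 differed from them in being even on arrays 1 to 4, between 7.63 and 7.72, and at 5.42 on array 5.

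Genes listed for the lipid coat were all read above the mark, as were 65.2% of all genes. The 25 measured genes, mostly of acylceramide synthesis and processing, also included the serine protease Tmprss4 and the phospholipid enzyme Selenoi. Their median level was 8.77, and their median SD of 0.264 was near the 0.235 of all genes above the mark. Alox12b, the gene the series is named for, read 11.02, 10.93, 11.32, 10.71 and 10.56 (10.91 ± 0.29, SD, n = 5), and Aloxe3, the epidermal lipoxygenase that acts after it, read 8.46, 8.52, 8.85, 8.34 and 7.99 (8.43 ± 0.31, SD, n = 5). For both, array 3 was highest and array 5 lowest. The fatty acid elongases Elovl1 and Elovl4, the second of which makes ultra-long chains, were at 12.62 ± 0.15 and 11.73 ± 0.11 (SD, n = 5). Cers3, the ceramide synthase that uses those chains, was at 9.88 ± 0.24, Cyp4f39, the hydroxylase of their far end, at 8.61 ± 0.13, and Pnpla1, the transacylase that adds linoleate, at 9.23 ± 0.21 (SD, n = 5). Sdr9c7, the dehydrogenase downstream of the lipoxygenases, was at 8.33 ± 0.26, and Abca12, the lamellar granule lipid transporter, at 6.87 ± 0.21 (SD, n = 5). Elovl3 and Fa2h, which is a fatty acid hydroxylase, were the lowest of the list at 3.96 ± 0.46 and 3.80 ± 0.47 (SD, n = 5).

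Proteases of desquamation and their inhibitors, 22 genes, also all lay above the mark, with a median level of 9.94 and a median SD of 0.223. Of all genes, 65.2% lay above the mark and 0.753% had an SD over 1. The kallikreins Klk7, Klk8 and Klk5 stood at 13.03 ± 0.21, 11.65 ± 0.11 and 11.62 ± 0.15, and Spink5, the inhibitor LEKTI that restrains them, at 10.62 ± 0.22 (SD, n = 5). Csta1, a stefin, was at 12.83 ± 0.20, St14, the membrane protease matriptase, at 9.17 ± 0.17, and Prss8, a protease that acts with it, at 9.05 ± 0.23 (SD, n = 5). Ctsl, cathepsin L, and Klk6 varied most in the list, both with an SD of 0.54. Of 12 desmosomal genes, 11 lay above the mark with a median level of 9.83 and 0 with an SD over 1. The cadherins of upper layers Dsc1, Dsg1a and Dsg1b were at 12.38 ± 0.09, 11.19 ± 0.32 and 7.96 ± 0.34, Dsc3, a cadherin of lower layers, was at 9.96 ± 0.62, and Pkp1, a plaque protein, was at 12.36 ± 0.10 (SD, n = 5). Dsc3 read 11.01 on array 5 and 9.50 to 10.04 elsewhere, and Dsc2 read 6.85 on array 3 and 4.62 on array 4. Pkp2, the plakophilin of heart and simple epithelia, was below the mark at 2.64.

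Of 15 tight and gap junction genes, 12 lay above the mark, with a list median of 8.95 and 0 with an SD over 1. For all genes, the shares were 65.2% above the mark and 0.753% with an SD over 1. Gja1, connexin 43, led at 11.65 ± 0.40, followed by Cldn4 at 10.26 ± 0.45 and Gjb5 at 10.03 ± 0.12 (SD, n = 5). Array 5 stood apart for the first of these, with 12.37 against 11.45 to 11.55, and for Cldn4, with 9.46 against 10.38 to 10.54. Cldn1, the claudin whose loss opens the skin barrier, was at 9.99 ± 0.25 (SD, n = 5). Gjb2 and Gjb6, connexins 26 and 30, were at 9.80 ± 0.60 and 8.95 ± 0.64 (SD, n = 5), and Cldn6, Cldn7 and Cldn8 were below the mark. All 25 epidermal transcription factor genes were above the mark, with a median of 8.07 and 0 with an SD over 1. Klf4, a regulator of barrier formation, and Hopx were among the 100 highest genes at 12.23 ± 0.15 and 11.98 ± 0.49, and Cebpb followed at 11.00 ± 0.22 (SD, n = 5). Grhl1 and Grhl3, grainyhead factors of barrier formation, were at 10.52 ± 0.11 and 8.83 ± 0.86, and Gata3 at 8.15 ± 0.88 (SD, n = 5); Grhl3 was lowest and Gata3 highest on array 5. Of the S100 genes, 10 of 12 lay above the mark with a median of 5.57; S100a16 and S100a14 were at 11.52 ± 0.05 and 10.72 ± 0.06, while S100a9, an alarmin raised in inflamed skin, was at 5.36 ± 1.00, the only SD over 1, and its partner S100a8 at 4.77 ± 0.70 (SD, n = 5).

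Genes of the ribosome and of respiration had median SDs of 0.0998 and 0.133. Of 44 ribosomal protein genes, 43 lay above the mark, at a median of 12.88 and with 0 SDs over 1, and Rpl41, Rps29 and Rps20 led at 14.01 ± 0.04, 13.62 ± 0.04 and 13.61 ± 0.09 (SD, n = 5). Rps16 was the member below the mark, read at 2.14 by its only probe set. All 37 genes of oxidative phosphorylation were above the mark at a median of 9.49, led by Uqcrb at 12.57 ± 0.10 and Cox6a1 at 12.49 ± 0.05 (SD, n = 5). Of the 14 common reference genes, Actb was at 12.72 ± 0.18 and Hprt at 8.61 ± 0.16, but Tfrc, the transferrin receptor, at 7.87 ± 0.62 and Gusb at 3.83 ± 0.96 were uneven (SD, n = 5). None of the 37 and none of these 14 had an SD over 1. Of all genes, 0.753% did, and 65.2% lay above the mark. Of 24 cell cycle genes, 20 lay above the mark, with a median of 4.43, close to the 4.11 of all genes; Pcna was at 7.95 ± 0.24, and Mki67, the proliferation antigen Ki-67, read 7.66, 7.38, 6.85, 7.79 and 6.06.

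All 18 immediate early genes, which are switched on within minutes of a stimulus, lay above the mark, from Arc at 3.54 upward, at a median of 7.64, with Fos at 10.34 ± 0.42, Egr3 at 10.13 ± 0.25 and Dusp1 at 10.09 ± 0.43 (SD, n = 5). All 13 heat shock genes lay above it at a median of 8.49, led by Hspb1, the small heat shock protein of differentiating keratinocytes, at 12.84 ± 0.23, and the inducible Hspa1b at 11.06 ± 0.10 (SD, n = 5). Neither list held a gene with an SD over 1. Of all genes, 0.753% had such an SD, and 65.2% lay above the mark. The part of the hot bath in these levels was not tested. All 17 sterol synthesis genes were above the mark at a median of 7.39; Hmgcs1, the entry enzyme, was at 10.89 ± 0.33 (SD, n = 5), and the list mean highest on array 3 at 8.49 and lowest on array 4 at 7.51. Idi1, the isomerase of the pathway, read 8.32, 8.23, 9.14, 7.11 and 8.05. Of 15 clock genes, all lay above the mark at a median of 5.19, and Per2 alone had an SD over 1, at 2.87 on array 5 and 5.45 to 5.82 elsewhere. Of 17 interferon-stimulated genes, 10 lay above the mark, about the share of all genes, and their median was 3.56; Oas1a was the highest at 5.54 ± 0.26 and Ifit1 was at 2.38 ± 0.10 (SD, n = 5).

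Over all 18193 genes, 137 had an SD over 1, and 135 of these lay above the mark. The median SD of the genes above the mark was 0.235, and 89.1% of them stayed under 0.5. By level, the median SD was 0.263 for genes between 4 and 6 and fell to 0.112 for genes above 12. Without array 5, the median SD of genes above the mark was 0.169 and 59 of them had an SD over 1. Among the 135, array 5 was the furthest from the others for 82, array 3 for 23, array 4 for 20, array 1 for 9 and array 2 for 1. The steadiest genes among the 1000 highest included Krt1, Rps14 and Rpl37a, both ribosomal, Actg1, the cytoplasmic gamma actin, Uqcrc2 of respiratory complex III, Snrpg of the splicing machinery, Vti1b, a vesicle fusion protein, and Dapl1, with SDs between 0.01 and 0.04.

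**Figure D2:**
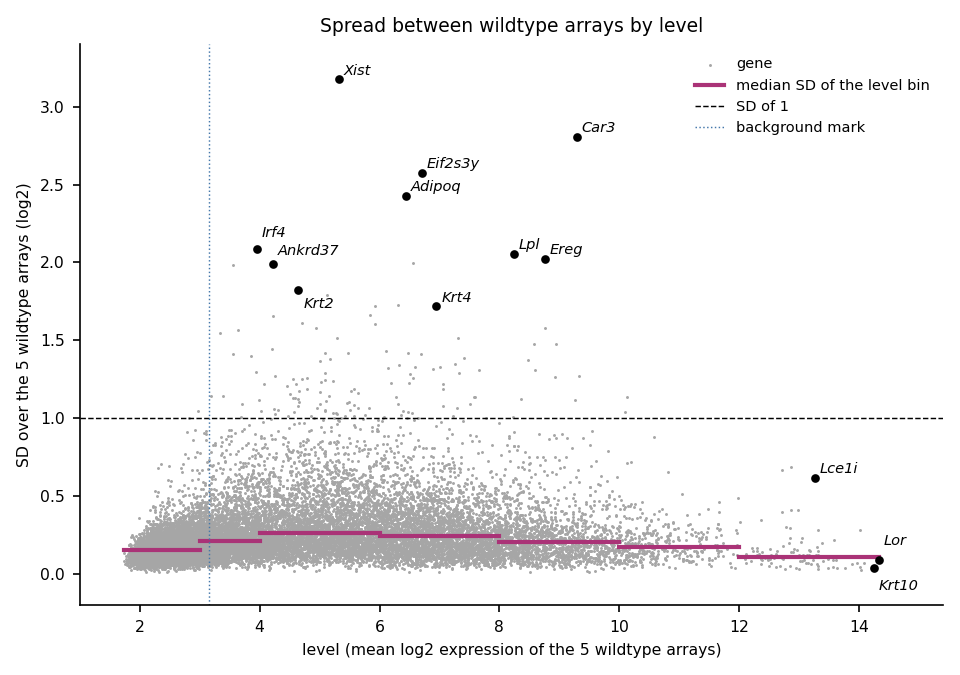
SD over the 5 wildtype arrays (y axis, log2) against level (x axis, mean log2 expression), 1 grey point per gene. Purple lines are the median SD of each level bin, which is 0.263 between 4 and 6 and 0.112 above 12; named black points are genes given in the text, with Xist, Car3 and Eif2s3y the most variable and Lor and Krt10 near the floor.

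The largest spread came from a sex-linked gene. Xist, a long RNA made by the inactivated X of female cells, read 4.32, 3.87, 4.25, 10.95 and 3.23 on arrays 1 to 5, and the Y-linked translation factor Eif2s3y read 7.67, 7.78, 8.04, 2.11 and 7.95. Array 4 was thus the only one with high Xist and low Eif2s3y, and the Y-linked demethylase Kdm5d went with it, at 1.82 against 4.29 to 5.72. Array 4 has the pattern of a female pup and the other 4 that of males; the labels give no sex. Any difference of array 4 from the other arrays therefore cannot be told apart from sex.

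**Figure D3:**
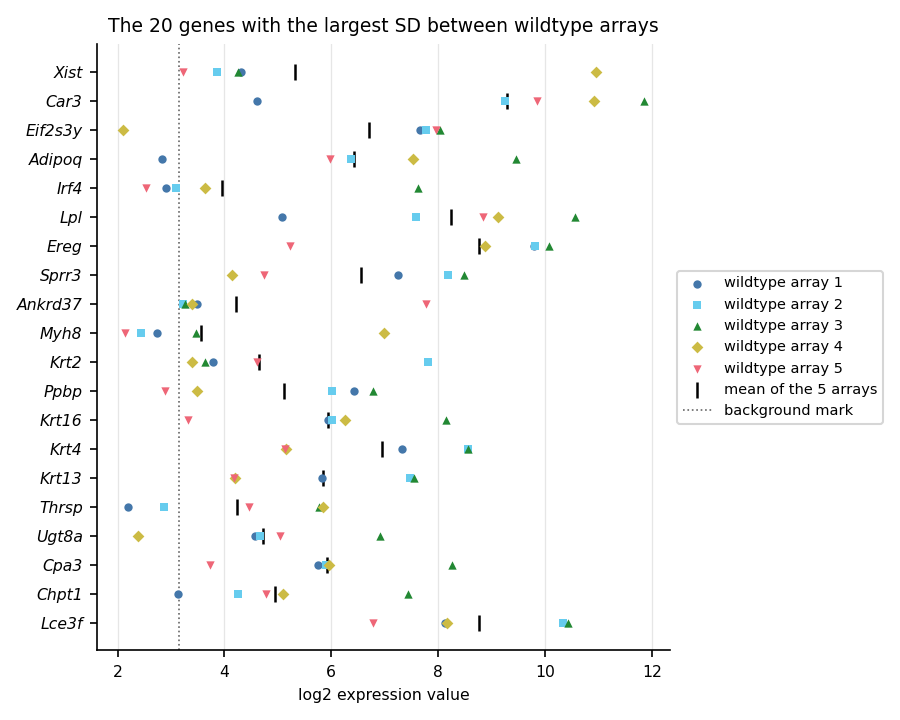
The 20 genes above the mark with the largest SD, in order. The x axis is the log2 expression value, each symbol is 1 wildtype array, the black tick is the mean and the dotted line is the background mark; single arrays stand apart for Xist, Eif2s3y and Myh8 (array 4), Irf4 (array 3), Krt2 (array 2), Ankrd37 and Ereg (array 5) and Car3 (array 1).

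Markers of several other cell types also varied between the arrays. Over all genes, 65.2% lay above the mark and 0.753% had an SD over 1. In such bulk samples, fewer cells of a type and less RNA per cell cannot be told apart. Fat cell genes varied most: 9 of 10 measured markers lay above the mark and 6 had an SD over 1, and the list mean was 4.17, 5.65, 7.51, 6.46 and 5.76 on arrays 1 to 5. Car3, carbonic anhydrase 3, read 4.60, 9.25, 11.84, 10.91 and 9.86. Adipoq, the fat cell hormone adiponectin, read 2.83, 6.36, 9.46, 7.53 and 5.98, and Lpl, lipoprotein lipase, 5.08, 7.59, 10.56, 9.12 and 8.84. Fabp4, the fat cell fatty acid binding protein, followed with 6.68, 8.43, 10.58, 9.70 and 9.29. All 4 were lowest on array 1 and highest on array 3, and Adipoq on array 1 was below the mark. Lep, leptin, was below the mark on every array. Of 8 sebocyte markers, which share lipid genes with fat cells, 6 lay above the mark with a median of 5.59 and none with an SD over 1, led by Scd1 at 8.75 ± 0.73 (SD, n = 5).

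Striated muscle genes were highest on array 4. Of the 21 markers, 14 lay above the mark, about the share of all genes. Their median was 3.56 with 7 SDs over 1, and their mean was 5.15 on array 4 and 3.32 to 4.17 on the others. Acta1, skeletal actin, read 6.86, 7.26, 7.56, 9.19 and 5.45, and Tnnc2, fast troponin C, 6.64, 6.67, 7.01, 8.56 and 4.59. Myh8, the perinatal myosin heavy chain, read 2.73, 2.44, 3.47, 6.99 and 2.15, above the mark on arrays 3 and 4. The adult fast myosins Myh1, Myh2 and Myh4 were below the mark in their means. Dermal fibroblast genes were highest on arrays 3 and 4: all 13 lay above the mark, 3 had an SD over 1, and the list mean was 7.24 and 6.98 on those arrays and 5.19 on array 5. Col3a1, a fibrillar collagen, read 9.38, 9.37, 10.42, 9.69 and 7.40, and Col1a2 9.20, 8.92, 9.73, 9.98 and 6.80. The part of tissue below the epidermis in these values was not tested.

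The means of the immune cell lists were lowest on array 5, though not every member was. All 17 markers of Langerhans cells and macrophages lay above the mark, at a median of 5.25 and with 6 SDs over 1, and their mean was 5.77, 6.15, 6.10, 6.72 and 4.83. On array 5, 11 of the 17 lay over 1 below the other arrays and 1 over 1 above. That 1 was Cd44, with 7.52, 7.58, 7.79, 7.90 and 8.89. H2-Aa, a class II antigen-presenting chain, read 8.31, 9.18, 8.76, 9.86 and 6.23, and Csf1r, the receptor for the growth factor of macrophages and Langerhans cells, 7.36, 7.79, 7.56, 8.71 and 6.33. Cd207, the Langerhans cell lectin langerin, was only at 3.81 ± 0.39 (SD, n = 5). Mast cell proteases were highest on array 3: Cpa3 read 5.74, 5.89, 8.27, 5.95 and 3.73 and Cma1 5.51, 5.19, 7.39, 5.27 and 3.12. Of the 9 mast cell markers, 6 lay above the mark, about the share of all genes. Irf4, a transcription factor of dendritic and lymphoid cells and of fat cells, read 2.91, 3.09, 7.62, 3.63 and 2.53, high on array 3 alone; its other probe set read 3.15 to 4.44, also highest there. Of 12 T cell markers, 5 lay above the mark, and the T cell receptor chains Cd3d and Cd3g were below it in their means. Of 7 neutrophil markers, 4 lay above the mark and Ltf, lactoferrin, which epithelia also make, was the only one with an SD over 1, at 5.01 ± 1.37 (SD, n = 5). For comparison with these lists, 65.2% of all genes lay above the mark and 0.753% had an SD over 1.

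Pigment cell genes were even on 4 arrays and low on array 5. Of the 12 melanocyte markers, 8 lay above the mark, about the share of all genes. The list means were 4.09 to 4.16 on arrays 1 to 4 and 3.25 on array 5. Dct, a melanin synthesis enzyme, read 7.15, 6.70, 6.69, 7.10 and 3.95, and Pmel, the melanosome matrix protein, 6.18, 6.28, 6.15, 6.58 and 3.95. Hair follicle genes were mostly above the mark: 11 of 12 inner root sheath genes and 15 of 17 hair shaft genes lay above the mark, at medians of 6.28 and 4.43 and with 0 SDs over 1 in both lists. Tchh, trichohyalin, which hardens the inner root sheath, was at 9.66 ± 0.47, its keratin Krt27 at 8.44 ± 0.56, and the shaft keratin Krt34 at 7.42 ± 0.59 (SD, n = 5). Of 11 Merkel cell markers, 4 lay above the mark: Chga, a secretory granule protein, was at 7.07 ± 0.37 and the simple keratin Krt8 at 4.40 ± 0.73 (SD, n = 5), Piezo2 and Isl1 were lower, and Atoh1, their defining transcription factor, and Krt20 were below it. Of red cell markers 4 of 10 lay above the mark, of nerve markers 4 of 8, of smooth muscle markers 6 of 8 and of endothelial markers 7 of 11, with list medians between 3.02 and 4.06. The share over all genes was 65.2%. The globin genes Hbb-b2 and Hba-a1 were at 5.14 and 2.33. Of the endothelial genes, the receptor Flt1 was at 6.13 and the claudin Cldn5 at 5.01, while Pecam1 was at 2.55.

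**Figure D4:**
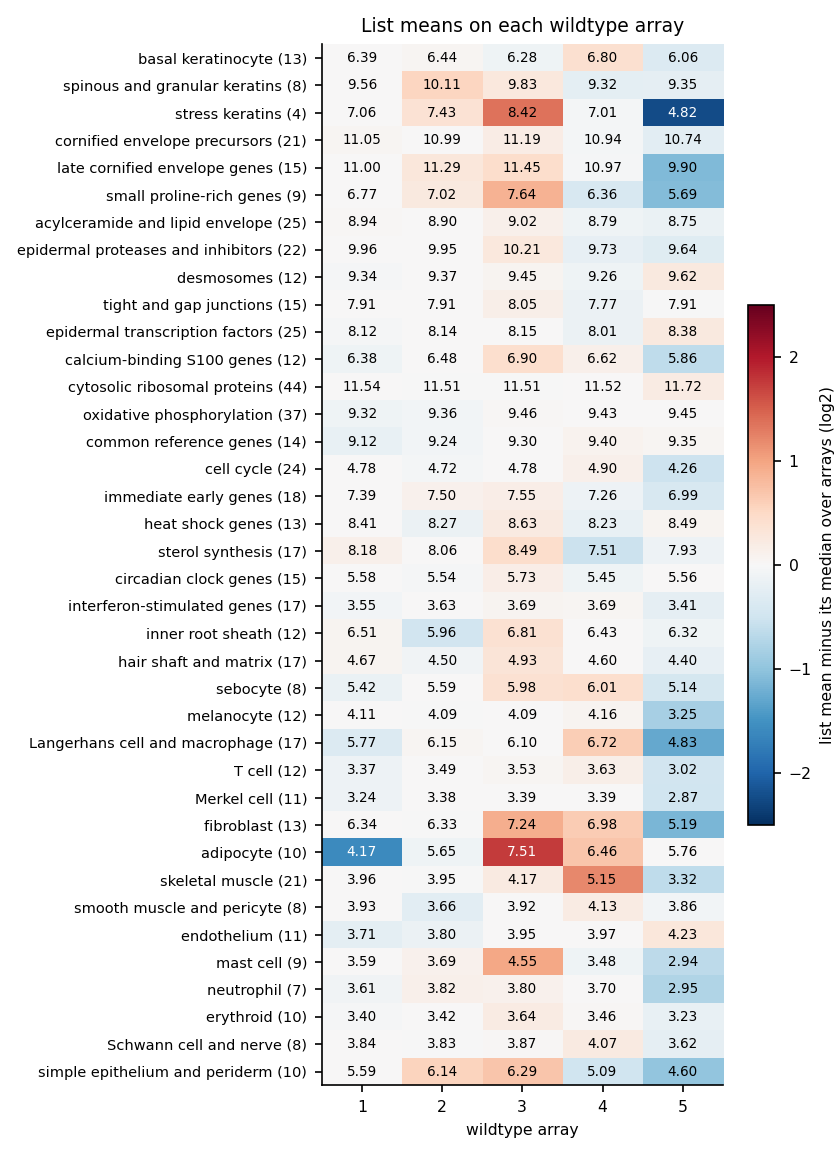
Mean log2 value of each gene list on each wildtype array, printed in the cells, with the number of measured genes in parentheses. Colours show the difference from the list's median over the 5 arrays; the stress keratins, fat cell, muscle and Langerhans lists show the strongest colours, and ribosomal and respiratory lists are nearly white.

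A group of keratins usually found outside the trunk epidermis varied together with Sprr3. Of 10 genes of simple epithelium and periderm, the thin outer layer that is shed before birth, 8 lay above the mark and 4 had an SD over 1. The shares over all genes were 65.2% and 0.753%. Krt4 read 7.32, 8.56, 8.57, 5.16 and 5.14, and its partner Krt13, with which it fills the cells of oral and oesophageal lining, read 5.83, 7.46, 7.55, 4.19 and 4.18. Krt7 and Krt19 were at 6.53 ± 1.03 and 4.02 ± 1.04 (SD, n = 5). Arrays 2 and 3 were highest and arrays 4 and 5 lowest for both Krt4 and Krt13, with array 1 between. Sfn, the stratifin protein of stratified epithelia, belongs to the same list and was even, at 9.50 ± 0.17 (SD, n = 5).

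Array 5 differed from the other arrays in both directions. Of the 11854 genes above the mark, 755 lay over 1 above the median of the other 4 arrays and 332 below it, 9.17% in all, against 1.76% on array 3 and less on the rest. Among the genes furthest below were Ereg, the growth factor epiregulin, with 9.79, 9.82, 10.08, 8.88 and 5.23, Ppbp, a platelet chemokine, with 6.43, 6.02, 6.77, 3.49 and 2.89, Cyp26b1, which degrades retinoic acid and lay 3.01 below, and the stress keratin Krt6b. Among those furthest above were Ankrd37, a target of hypoxia signalling, with 3.49, 3.22, 3.25, 3.39 and 7.78, and Sostdc1, an inhibitor of BMP and Wnt signals, which lay 2.96 above. Of the 25 epidermal transcription factors, 7 lay over 1 above the other arrays and 4 below. Gata3 read 9.68 on array 5 against 7.57 to 7.99, and Pou3f1, Tfap2a and Grhl2 were likewise highest there. Grhl3 read 7.43 on array 5 against 8.61 to 9.55, and Ovol1, Prdm1 and Ehf were lowest there too. The leading genes Lor, Krt10, Krt1 and Flg read 14.22, 14.25, 14.01 and 12.99 on array 5, all close to the other arrays. Lists of ribosomal and respiratory genes had means of 11.72 and 9.45 on array 5, against 11.51 to 11.54 and 9.32 to 9.46. The melanocyte, Langerhans cell and macrophage, T cell, mast cell, neutrophil, fibroblast and skeletal muscle lists were all lowest on array 5. So were many other lists, among them the sebocyte, Merkel cell, red cell, nerve, cell cycle and most epidermal lists. Even the internal organ markers were lowest on array 5, at 2.93 against 3.02 to 3.10. The endothelial list was highest there, at 4.23 against 3.71 to 3.97, and the smooth muscle list was lowest on array 2, at 3.66.

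**Figure D5:**
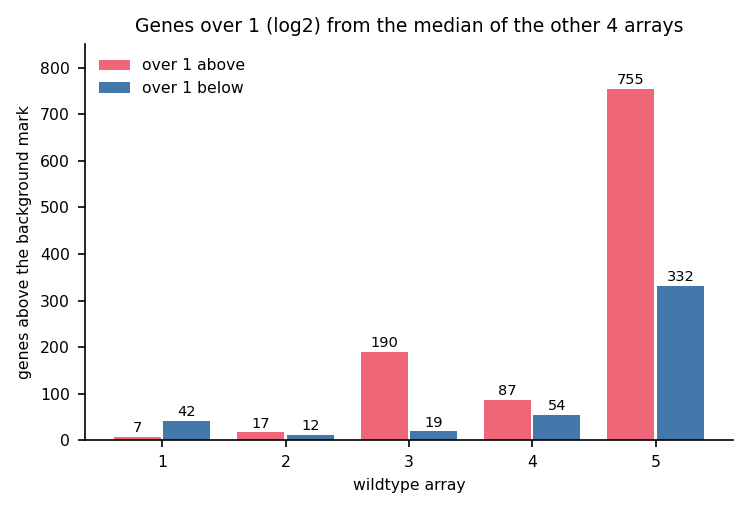
Number of genes above the mark (y axis) that lay over 1 (log2) above (red) or below (blue) the median of the other 4 arrays, for each wildtype array (x axis). Array 5 has 755 and 332, array 3 has 190 and 19, array 4 has 87 and 54, and arrays 1 and 2 have the fewest.

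The choice of probe set bears on the ranking. Of the 100 highest genes, 49 have several probe sets, and the next brightest one lay a median of 0.889 below; for 24 genes the gap was over 1 and for 10 it was over 3. Tpt1 was 13.88 by one probe set and 2.17 by the other. Lor was 14.33, 13.69 and 6.47 by its 3 probe sets. For 29 of the 100 highest genes, 10 of them among the 30 highest, the brightest probe set has the suffix Affymetrix gives to sets that may also read other transcripts. Hnrnpab, an RNA-binding protein, ranked among the 100 highest through a probe set that read 13.24, 13.29, 12.71, 13.33 and 11.71, while its other 6 probe sets lay between 2.78 and 10.40. Some patterns given above were seen in a second probe set and some were not. Xist was high on array 4 alone in all 3 probe sets, and the second probe set of Krt4 and of Lpl gave the same order of arrays as the first. The other probe sets of Eif2s3y and Kdm5d were below the mark on every array, so the low values of these genes on array 4 rest on 1 set each. The second brightest set of Car3 was also lowest on array 1 and highest on array 3, but its other 2 sets, at 4.00 and 2.95, were highest on array 4. The high value of Trp63 on array 5 came from its brightest set: another, at 4.02, was lowest there, and the sets at 2.97 and 4.28 did not set array 5 apart.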

How the data were processed

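Total RNA of trunk epidermis was labelled with biotin and hybridised to Affymetrix Mouse Genome 430 2.0 arrays, per the labels' protocols. The authors deposited log2 expression values for 45037 probe sets, and the submitters' processing notes name the affy package without a version. The sources used here do not state how background was corrected, arrays normalized or probes summarised. Wildtype values ran from 1.45 to 14.45, from which the log2 scale was inferred, array medians were 3.14 to 3.22, and the values were used as deposited. No 2 wildtype arrays shared more than 124 identical values. Precision is limited by the number of arrays, since arrays have no sequencing depth.

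Groups came from the sample titles. The platform annotation gave 1 gene for 34945 probe sets, several for 932 and no entry for 9160. Gene numbers tied 34741 of the 34945 to the table of GRCm38.p6 genes, and the other 204 kept the annotation's name. The probe set with the highest wildtype mean stood for its gene. That table served for names and gene order only, and 14452 of 18193 genes had a promoter window, 250 bases before to 50 after the start.

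A gene's distance from the other arrays is its value on an array minus the median of the other 4. Means, SDs and counts were computed with Python 3.11.15, numpy 2.4.6 and pandas 2.3.3, tested on simulated data first. The 40 gene lists and the rule for named genes were chosen with earlier results of these data known. The rule took the 30 highest genes, 3 highest and 2 most variable members per list, the 20 largest SDs, the 10 smallest among the 1000 highest, the 5 furthest genes per array in each direction, sex-linked genes, Alox12b and Aloxe3, and left out provisional symbols. Other list members named for their role were chosen after their values were seen. Alternatives changed the probe-set rule, the scaling, the background mark and the measure of spread, and left out each array.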

Additional observations from a re-analysis of the deposited data

Results flagged for a closer look

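A value is given here where 1 array lay so far from the other 4 that its gap to the nearest value exceeded 0.71 of the whole range (Dixon's criterion for 5 values), which chance alone exceeds for about 1 in 20 items. Of 209 genes and list means reported, 37 exceeded it, and over all 11854 genes above the mark 1471 (12.4%) did, 1135 of them on array 5. Some of the 209 were named for a large SD or a large distance on 1 array, so the 37 cannot be set against the chance rate. The criterion served as a flag and not as a test.

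On array 5 the low values among epidermal genes were Krt14 at 7.36, Krt17 at 5.42, Ovol1 at 7.15, Cldn4 at 9.46 and 7 late cornified envelope genes, with Lce1a2 at 12.82, Lce1i at 12.16, Lce1d at 12.02, Lce1b at 11.76, Lce1h at 11.53, Lce1l at 5.93 and Lce1g at 4.29. The melanocyte list mean was low there at 3.25, as were Dct at 3.95 and Pmel at 3.95. Ereg at 5.23, Per2 at 2.87 and ND5 at 13.51 were also low on array 5, as was Chga at 6.42. The high values on array 5 were Ankrd37 at 7.78, Gata3 at 9.68, Pou3f1 at 10.27, Tfap2a at 8.68, Trp63 at 8.65 (in its brightest probe set), Grhl2 at 7.52, Sostdc1 at 8.97, Gja1 at 12.37, Dsg1a at 11.75 and Tpt1 at 13.99. The number of genes over 1 from the other arrays was itself far higher on this array, at 1087.

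On array 4, Xist at 10.95, Myh8 at 6.99 and Cox6a1, a subunit of cytochrome oxidase, at 12.58 were high and Eif2s3y at 2.11 was low. On array 3, Irf4 at 7.62 and Pcna, the DNA polymerase clamp, at 8.36 were high. Krt2 was high on array 2 at 7.81 and Ivl on array 1 at 12.07.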

How the results depend on the processing

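Of 197 values computed for 21 results under alternatives, 178 stayed within 1.5 times the reported count or within a tolerance. For the range of a list mean, the tolerance was the SD of the list means over arrays. For the median SD, it was the SD over arrays of the median absolute distance from the other arrays. By this tolerance the median SD of 0.169 without array 5 counted as unmoved. Quantile normalization, median centring and leaving out less specific probe sets moved none of them further. The 100 highest genes shared 100 members with those after quantile normalization, 98 to 100 when 1 array was left out, 79 without less specific probe sets and 70 when all probe sets of a gene were averaged. Averaging lowered the number of genes with an SD over 1 from 137 to 91 and the genes over 1 from the other arrays to 28 on array 1, 92 on array 4 and 621 on array 5. The scaled median absolute deviation in place of the SD gave 50 genes over 1. The mark from internal organ markers gave 7640 genes above it in place of 11854.

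With each array left out in turn, genes with an SD over 1 numbered 60 (without array 5) to 196 (without array 2). Genes over 1 from the other arrays ranged from 65 to 97 on array 1 and from 34 to 57 on array 2. The range of the list mean over arrays was 1.86 (without array 1) to 3.34 for fat cell genes, 0.748 (without array 3) to 1.61 for mast cell genes, and, without array 4 at the low end, 0.859 to 1.84 for muscle, 0.379 to 0.742 for basal keratinocyte and 0.567 to 0.978 for sterol synthesis genes. Without array 5 at the low end, it was 0.952 to 1.89 for Langerhans cell and macrophage, 0.0686 to 0.906 for melanocyte, 0.912 to 2.05 for fibroblast, 1.41 to 3.60 for stress keratin and 0.479 to 1.54 for late cornified envelope genes. Levels near the mark cannot be told from background here. No paired analysis was possible because wildtype arrays alone were described and no test was made.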

Other observations

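Zinc finger genes were frequent among those high on array 5, a group looked at after the values had been seen. Of the 755 genes lying over 1 above the other arrays there, 38 (5.03%) had symbols beginning with Zfp, the mouse prefix for zinc finger proteins, against 207 (1.75%) of the 11854 genes above the mark, and 1 such gene lay over 1 below. On array 3, Pck1, the gluconeogenic enzyme that fat cells also use, lay 3.52 above the other arrays and Saa1, an acute phase apolipoprotein, 3.44 above.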
